A study of Homo sapiens with 6 samples.

Results

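The cytosolic ribosomal protein genes were examined in HFL-1 cells, an established line of human fetal lung fibroblasts, after knockdown of TAZ. They were taken by name from the table of counts, as the symbols RPL or RPS followed by digits with an optional final A or L, together with RPLP0, RPLP1, RPLP2 and RPSA. This gave 78 of the 23355 genes, 46 of the large subunit and 32 of the small subunit. RPL10, RPL39 and RPL36A were left out, because they lie on the X chromosome in a stretch where 1 of the libraries lost counts. Of the 78 genes, 74 passed the filter on low counts (44 large, 30 small) among 14053 genes tested. Of the others, RPL21 was listed at 0 counts in all 6 libraries, and RPL3L, the muscle paralog of RPL3, had 0 to 3 counts.

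Cells received either a non-targeting siRNA (siNTC) as the control or 1 of 2 siRNAs against TAZ, siTAZ #1 and siTAZ #2. RNA was taken 48 h after transfection. No other treatment is named in the labels, and each group holds 2 libraries that the series describes as biological replicates. All 6 libraries come from 1 cell line, so p-values measure the spread between these libraries only. TAZ is a transcriptional coactivator of the Hippo pathway and is encoded by WWTR1.

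Each ribosome joins a small subunit, which reads the mRNA, to a large subunit, which makes the peptide bond, and most ribosomal proteins are present once per ribosome. In vertebrates the mRNAs of these proteins start with a C followed by a run of pyrimidines, the 5′ terminal oligopyrimidine (TOP) motif, through which mTOR and LARP1 set their translation and stability. Several ribosomal proteins also have roles off the ribosome, such as the binding of the ubiquitin ligase MDM2 by RPL5 and RPL11.

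The bases around the annotated start of transcription were read from RefSeq (GRCh38.p14), whose table held 60 of the 78 genes. A run of at least 5 bases made of C and T only, opening with C and with its first base within 10 bases of the start on the transcribed strand, was found in 51 of these 60 (85%). The same search found a run in 31.3% of the 27305 starts in the table. The following windows of 22 bases have the annotated start at base 9 and the run in capitals. They are shown for the 5 called genes that were lowest with siTAZ #2, for the most counted gene of each subunit, for 2 genes that did not pass the test with either siRNA (RPL24 and RPS19) and for RPS27L, the gene that was higher with both.
RPL13A (chr19:49487600-49487621, plus strand): aCCTCCTCCTTTTCCaagcggc
RPL29 (chr3:51995882-51995903, minus strand): gCCCCTTTCTCTTCCggttcta
RPL14 (chr3:40457331-40457352, plus strand): tCTTCTTCCTTCTCgcctaacg
RPS7 (chr2:3575252-3575273, plus strand): CCCTCCTCCTCgcgctgtttcc
RPS12 (chr6:132814561-132814582, plus strand): gatgaggCCTCTTTCCCTgccg
RPLP0 (chr12:120201098-120201119, minus strand): cgcgaggCCCTTCTCTCgccag
RPS6 (chr9:19380223-19380244, minus strand): agttggCCCTCTTTTCCgtggc
RPL24 (chr3:101686705-101686726, minus strand): gattCTCTCTTTCTTTTCgcca
RPS19 (chr19:41860247-41860268, plus strand): ccgtcgttCCCTTTCCCCTggc
RPS27L (chr15:63157464-63157485, minus strand): tgccgagcgcagatcgcttgca
Every window but that of RPS27L carried a run. A missing run says only that these letters are not near this annotated start. It was also missing in RPL15, RPL13, RPL17, RPL19 and RPL6, which were all lower with siTAZ #2. RPL10L, RPL27 and RPS29, which were not called with either siRNA, had no run either.

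The libraries held 15648055 to 32078188 counts. WWTR1 was at 132 and 131 CPM (a gene's counts relative to the TMM-scaled library size) with siNTC, at 26.4 and 28.4 CPM with siTAZ #1, and at 46.1 and 43.1 CPM with siTAZ #2. Against siNTC the log2 fold change was -2.26 with siTAZ #1 (SE 0.10, FDR 0.00062) and -1.56 with siTAZ #2 (SE 0.10, FDR 0.00068). In replicate 2 of siTAZ #1, which was also the deepest library, counts were reduced over the stretch from RANGAP1 on chromosome 22 through X and Y, to different degrees in different genes. None of the 78 genes lies there, but the 576 genes of that stretch that were tested raised the common dispersion of the fit from 0.0163 to 0.0807. The 8 fibroblast markers summed to 21750 to 34566 CPM. The 3 endothelial markers summed to 0.761 to 3.38 CPM, 4 of the 6 epithelial markers were under 1 CPM in all libraries (KRT18 was at 29.7 to 50.4 CPM), and so were 2 of the 3 blood markers (CD68 was at 37.8 to 75.4 CPM).

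The ribosomal protein genes together took a smaller share of the counts with TAZ siRNAs. They held 2.56% and 2.54% of all counts in the siNTC libraries, 2.12% and 2.43% with siTAZ #1, and 2.03% and 1.73% with siTAZ #2. Each of the 4 siTAZ libraries was lower than either siNTC library, and both siTAZ #2 libraries were below both siTAZ #1 libraries. The share of the large subunit genes was 1.64% ± 0.0103 (SD, n = 2) with siNTC, 1.44% ± 0.126 with siTAZ #1 and 1.18% ± 0.123 with siTAZ #2. For the small subunit genes the shares were 0.908% ± 0.0106, 0.834% ± 0.0923 and 0.694% ± 0.0906 (SD, n = 2 each), and the higher siTAZ #1 library, at 0.900%, came close to the lower siNTC library, at 0.901%. Bulk RNA does not tell a fall in every cell from a fall in some of the cells, and a share falls also when other genes rise.

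**Figure D1:**
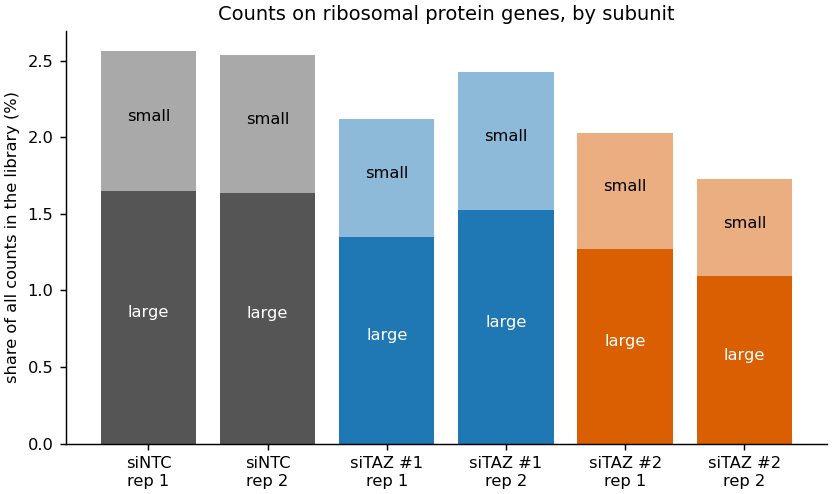
Share of all counts, in percent, taken by the large (solid) and small (pale) subunit genes in each of the 6 libraries. The siNTC libraries reach 2.56% and 2.54%, and the 4 siTAZ libraries lie lower, down to 1.73% in replicate 2 of siTAZ #2.

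With siTAZ #2, 27 of the 74 genes were lower than with siNTC (36.5%, edgeR's quasi-likelihood test, FDR under 0.05), against 14.4% of all genes tested. They were 18 of the 44 large subunit genes (40.9%) and 9 of the 30 small subunit genes (30%). Only RPS27L was higher, against 14.1% of all genes. The median log2 fold change was -0.37 for the large subunit and -0.22 for the small subunit, beside 0.01 for all genes, and 60 of the 74 values were negative. Without replicate 1 or 2 of siNTC, 12 or 13 genes were lower, while the share of all genes fell to 5.29% or 4.88%. Without replicate 1 or 2 of siTAZ #1, 44 or 43 were lower, with 20.5% or 20.6% of all genes.

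**Figure D2:**
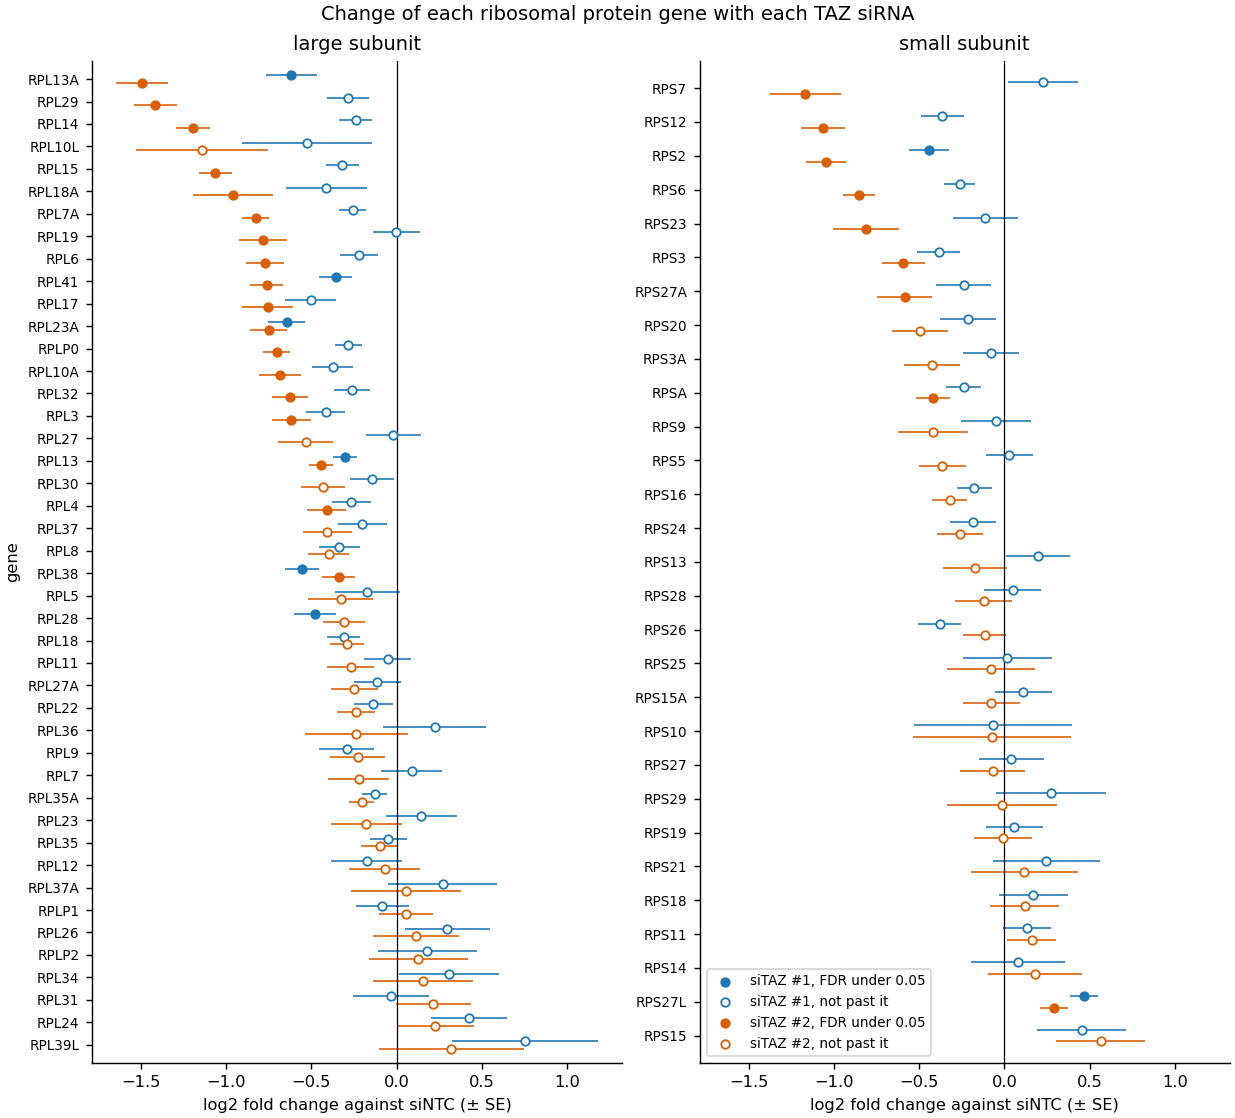
Log2 fold change against siNTC (± SE) of the 44 large and 30 small subunit genes that were tested, for siTAZ #1 (blue) and siTAZ #2 (orange), ordered by siTAZ #2. Of the small subunit genes, 1 is not drawn. Filled points passed FDR 0.05. With siTAZ #2 most values lie below 0, and RPS27L is the filled point above 0 with each siRNA.

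The largest falls with siTAZ #2 were in 3 large subunit genes. RPL13A (chromosome 19, 49990767 to 49996314 on GRCh37), whose protein can leave the ribosome to silence inflammatory mRNAs, was at 316 and 288 CPM with siNTC, 211 and 183 CPM with siTAZ #1, and 93.0 and 121 CPM with siTAZ #2. The groups did not overlap, and the log2 fold change with siTAZ #2 was -1.49 (SE 0.15, FDR 0.0020), a level 0.355 times that of siNTC. It was also lower with siTAZ #1 (log2 fold change -0.62, SE 0.15, FDR 0.037).

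RPL29 (chromosome 3, 52027538 to 52029911), also known as a heparin-binding protein, was at 423 and 452 CPM with siNTC, 374 and 344 CPM with siTAZ #1, and 182 and 146 CPM with siTAZ #2. The siTAZ #2 libraries stood apart from the other 4, with a log2 fold change of -1.42 (SE 0.13, FDR 0.0013), while the value with siTAZ #1, -0.28 (SE 0.12, FDR 0.16), did not pass the test. RPL14 (chromosome 3, 40498783 to 40510078), a large subunit protein, was at 370 and 363 CPM with siNTC, 287 and 333 CPM with siTAZ #1, and 154 and 167 CPM with siTAZ #2. The log2 value against siNTC was -1.20 with siTAZ #2 (SE 0.10, FDR 0.0011) and -0.24 with siTAZ #1 (SE 0.10, FDR 0.14).

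In the small subunit, RPS7 and RPS12 fell most with siTAZ #2. RPS7 (chromosome 2, 3622850 to 3628510), which takes part in the maturation of the small subunit and can bind MDM2, was at 202 and 220 CPM with siNTC, 225 and 270 CPM with siTAZ #1, and 113 and 74.5 CPM with siTAZ #2. Both siTAZ #1 libraries were thus above both siNTC libraries and both siTAZ #2 libraries below them. The log2 fold change was -1.17 with siTAZ #2 (SE 0.21, FDR 0.011) and 0.23 with siTAZ #1, which did not pass the test (SE 0.21, FDR 0.48). Without replicate 1 or 2 of siNTC, the call with siTAZ #2 was lost (FDR 0.060 and 0.075). RPS12 (chromosome 6, 133135708 to 133138703), a gene with 3 small nucleolar RNA (snoRNA) genes inside it, was at 236 and 215 CPM with siNTC, 164 and 187 CPM with siTAZ #1, and 118 and 97.4 CPM with siTAZ #2. The fitted log2 fold change with siTAZ #2 was -1.07 (SE 0.13, FDR 0.0032).

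Genes with more counts also fell with siTAZ #2. RPLP0, the base of the ribosomal stalk and a common reference gene in qPCR, had the most counts of the large subunit genes. It was at 1259.8 and 1315 CPM with siNTC, 1021 and 1094 CPM with siTAZ #1, and 774 and 805 CPM with siTAZ #2, in groups that did not overlap (log2 fold change with siTAZ #2 -0.70, SE 0.08, FDR 0.0027). RPS6, the substrate of S6 kinase downstream of mTOR, had the most counts of the small subunit genes. It was at 1098 and 1122 CPM with siNTC, 865 and 985 CPM with siTAZ #1, and 601 and 627 CPM with siTAZ #2 (log2 fold change with siTAZ #2 -0.85, SE 0.09, FDR 0.0023). With siTAZ #1, both genes were lower in value in both libraries but missed the threshold (FDR 0.057 for RPLP0 and 0.097 for RPS6).

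**Figure D3:**
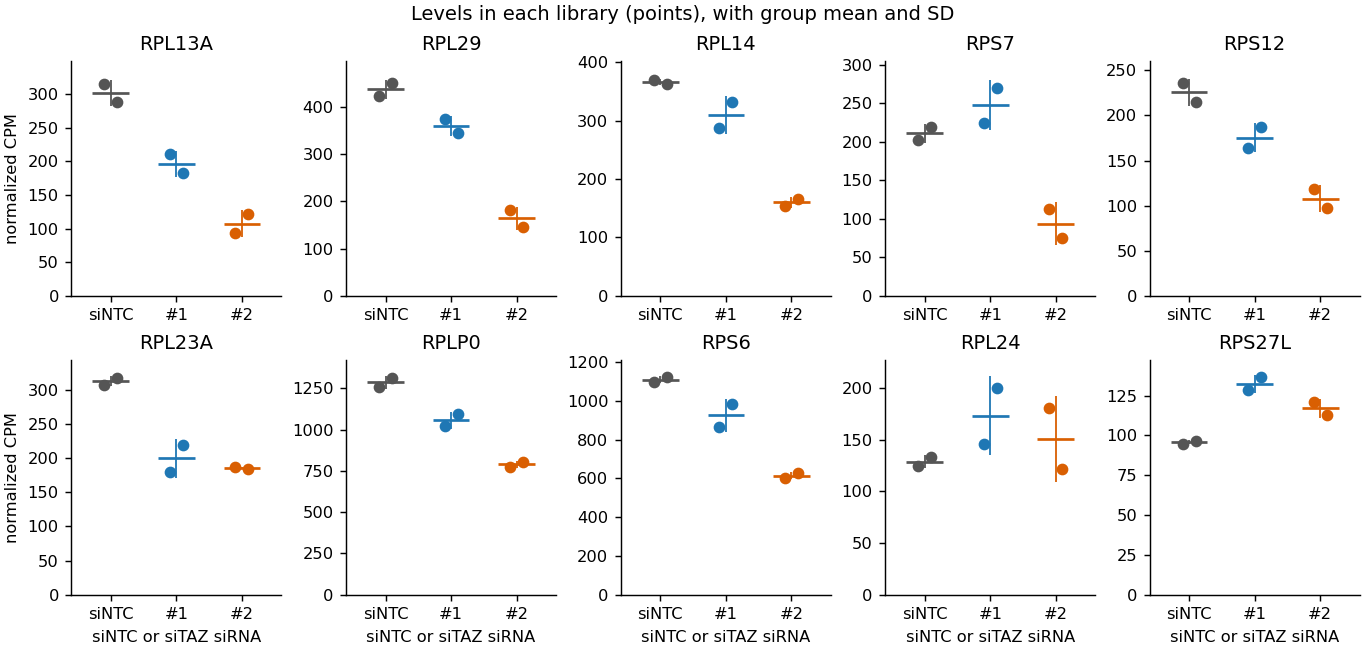
Normalized CPM in each library (points), with the group mean (horizontal line) and SD (vertical line, n = 2), for 10 of the genes with siNTC, siTAZ #1 and siTAZ #2. RPL13A, RPL29, RPL14 and RPS12 are lowest with siTAZ #2, the siTAZ libraries of RPL23A overlap below siNTC, RPL24 shows no separation between siNTC and siTAZ #2, and RPS27L is higher in all 4 siTAZ libraries.

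The remaining most counted genes behaved likewise. RPL3, a protein near the peptidyl transferase centre, was at 1093 and 1043 CPM with siNTC, 738 and 863 CPM with siTAZ #1, and 746 and 646 CPM with siTAZ #2. RPL41, which encodes the smallest ribosomal protein, was at 1073 and 1101 CPM, 909 and 787 CPM, and 658 and 625 CPM in the same order, and was lower with both siRNAs. In the small subunit, RPSA, also described as a laminin receptor precursor, was at 884 and 834 CPM, 774 and 681 CPM, and 676 and 608 CPM. RPS3, which lines the mRNA entry channel, was at 743 and 771 CPM, 616 and 544 CPM, and 557 and 447 CPM. In all of these genes the 4 siTAZ libraries were below both siNTC libraries. RPL3, RPSA and RPS3 passed the test with siTAZ #2 (FDR 0.013, 0.030 and 0.020) but not with siTAZ #1 (FDR 0.054, 0.16 and 0.086). These 3 calls were lost without either siNTC library (FDR 0.073 to 0.16) and without replicate 2 of siTAZ #2 (FDR 0.072 to 0.14), and that of RPSA also without replicate 1 of siTAZ #2 (FDR 0.070).

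With siTAZ #1, 8 of the 74 genes were lower than with siNTC (10.8%), against 9.78% of all genes tested, so the share of ribosomal protein genes was close to that of all genes. They were 6 large subunit genes (RPL23A, RPL13A, RPL38, RPL28, RPL41 and RPL13) and 2 small subunit genes, RPS2 among them. Only RPS27L was higher, against 10.8% of all genes. The median log2 fold change was -0.21 for the large subunit and -0.02 for the small subunit, beside 0.02 for all genes. Values were negative in 35 of the 44 large subunit genes and in 15 of the 30 small subunit genes.

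RPL23A had the lowest value with siTAZ #1. This protein sits at the exit of the peptide tunnel, where the signal recognition particle docks, and its gene holds 4 snoRNA genes. It was at 307 and 317 CPM with siNTC, 180 and 220 CPM with siTAZ #1, and 187 and 184 CPM with siTAZ #2. The siTAZ libraries overlapped each other and were all below siNTC, with log2 fold changes of -0.65 with siTAZ #1 (SE 0.11, FDR 0.013) and -0.75 with siTAZ #2 (SE 0.11, FDR 0.0059, lost without replicate 2 of siNTC at FDR 0.052). The annotation lists 87 pseudogene copies of RPL23A, so its counts are uncertain where reads could be placed on a copy. RPL38, known from the translation of Hox mRNAs in the mouse embryo, was at 237 and 264 CPM with siNTC, 175 and 166 CPM with siTAZ #1, and 210 and 186 CPM with siTAZ #2. Its log2 fold changes were -0.56 (SE 0.10, FDR 0.015) and -0.34 (SE 0.10, FDR 0.0496). The call with siTAZ #2 was lost under 8 of the alternatives, at FDR 0.052 to 0.23.

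The count with siTAZ #1 depended on single libraries and on the test. Without replicate 1 or replicate 2 of siNTC, which leaves 1 control library, all calls of lower genes with siTAZ #1 were lost. The share of all genes fell as well. EdgeR's exact test on 4 libraries gave 0 lower (3 at an unadjusted p under 0.05), against 3.45% of all genes. With the stretch from RANGAP1 through Y left out, 20 genes were lower, against 14.9% of all genes in that fit, and DESeq2 also gave 20, against 13.4%.

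RPS27L, a paralog of RPS27, was the exception among the 74 genes. It was at 94.7 and 96.6 CPM with siNTC, 128 and 136 CPM with siTAZ #1, and 121 and 113 CPM with siTAZ #2. It was thus higher in each of the 4 siTAZ libraries. The rise was 0.47 on the log2 scale with siTAZ #1 (SE 0.08, FDR 0.014) and 0.29 with siTAZ #2 (SE 0.08, FDR 0.046). Both calls were lost without either siNTC library (FDR 0.11 to 0.23), that of siTAZ #1 was also lost in edgeR's exact test (FDR 0.42), and that of siTAZ #2 without either of its own libraries (FDR 0.20 and 0.11), without a filter (FDR 0.12) and in DESeq2 (FDR 0.054). RPS27 itself was at 79.1 and 77.4 CPM, 75.6 and 85.4 CPM, and 89.0 and 60.0 CPM in the 3 groups and did not pass the test with either siRNA (FDR 0.90 and 0.83).

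Across both siRNAs, 33 of the 74 genes had all 4 siTAZ libraries below both siNTC libraries (44.6%), against 17.5% of all genes tested. They were 24 of 44 large subunit genes (54.5%) and 9 of 30 small subunit genes (30%). All 4 libraries were above siNTC in 1 gene, RPS27L, against 18.6% of all genes. The siRNAs share the siNTC libraries, so the changes with each are not independent of one another.

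The siRNAs were also compared directly, without siNTC. In this comparison 15 of the 74 genes were higher with siTAZ #1 than with siTAZ #2 (20.3%), against 15.2% of all genes, and none was lower (0 also at an unadjusted p under 0.05 and in DESeq2), against 13.4% of all genes. They were 10 large subunit genes (RPL29, RPL14, RPL13A, RPL19, RPL15, RPL7A, RPL6, RPLP0, RPL41 and RPL32) and 5 small subunit genes (RPS7, RPS12, RPS23, RPS2 and RPS6). All 15 were among the genes lower with siTAZ #2. Both comparisons use the same siTAZ #2 libraries, so this overlap is partly built in. The median difference was 0.21 for the large and 0.18 for the small subunit, beside -0.01 for all genes, and 63 of 74 values were positive. RPS7 differed most, with a log2 difference of 1.40 (SE 0.21, FDR 0.0061), followed by RPL29 with 1.13 (SE 0.12, FDR 0.0024) and RPL14 with 0.95 (SE 0.10, FDR 0.0022). The number rose without replicate 1 of siTAZ #1 and fell without replicate 2 of siTAZ #2, and so did the share of all genes. EdgeR's exact test on 4 libraries gave 3 of the 74, namely RPS7, RPL29 and RPL14. The share of all genes in that test was 5.62%, so the family was not above it there.

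The members of one ribosomal site did not always move alike. In the stalk, where RPLP0 carries the acidic proteins RPLP1 and RPLP2 that recruit elongation factors, RPLP0 was lower with siTAZ #2 but RPLP1 and RPLP2 were not called. RPLP1 was at 253 and 237 CPM with siNTC and at 289 and 219 CPM with siTAZ #2 (FDR 0.83), and RPLP2 was at 236 and 223 CPM and at 289 and 212 CPM (FDR 0.78). In both genes 1 library of siTAZ #2 was above siNTC and the other below. Of the 7 proteins around the tunnel exit, RPL19, RPL17 and RPL23A were lower with siTAZ #2, whereas RPL22, RPL26, RPL31 and RPL35 were not called. The 3 proteins listed at or near the mRNA entry channel, RPS2, RPS3 and RPS23, were all lower with siTAZ #2, and RPS2 also with siTAZ #1. This list does not cover every protein of the channel. RPS9, which was not on it, was not called (FDR 0.89 with siTAZ #1 and 0.18 with siTAZ #2). RPS2 was at 665 and 639 CPM with siNTC, 449 and 511 CPM with siTAZ #1, and 344 and 287 CPM with siTAZ #2. Each of these sites holds few genes. With siTAZ #2, 36.5% of the whole family and 14.4% of all genes were lower, and a difference between sites was not tested.

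RPL5 and RPL11, which form a particle with 5S rRNA and bind MDM2, did not pass the test. RPL5 was at 389 and 404 CPM with siNTC, 287 and 416 CPM with siTAZ #1, and 347 and 284 CPM with siTAZ #2, and RPL11 was at 467 and 471 CPM, 395 and 508 CPM, and 414 and 364 CPM. In both genes 1 siTAZ #1 library was above siNTC and the other below. RPL23 and RPL24, which contact the joining inhibitor eIF6, were not called either. RPL24 was at 124 and 133 CPM with siNTC, 146 and 200 CPM with siTAZ #1, and 180 and 121 CPM with siTAZ #2 (FDR 0.24 and 0.49). Of the RACK1 neighbours, RPS3 was lower with siTAZ #2 and RPS16 was not called (FDR 0.064).

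Of the small subunit proteins with named roles, RPS6, RPSA and RPS27A were lower with siTAZ #2, and RPS14 and RPS19 were not called. These stand beside 30% of the small subunit genes and 14.4% of all genes lower with siTAZ #2. RPS27A, made as a fusion with ubiquitin, was at 164 and 179 CPM with siNTC, 139 and 151 CPM with siTAZ #1, and 132 and 96.2 CPM with siTAZ #2 (FDR 0.041, lost without either siNTC library or replicate 2 of siTAZ #2 at FDR 0.094 to 0.18). RPS19, the gene most often mutated in Diamond-Blackfan anaemia, was at 284 and 246 CPM, 251 and 301 CPM, and 301 and 226 CPM, with overlapping groups (FDR 0.83 and 0.98). Of 18 tested genes of that anaemia, RPS7 and RPL15 were lower with siTAZ #2 (11.1%, beside 14.4% of all genes) and none was called with siTAZ #1. Besides RPS27L, 2 paralogs were tested. RPL39L was at 20.4 and 32.8 CPM with siNTC, 35.4 and 54.0 CPM with siTAZ #1, and 45.3 and 21.1 CPM with siTAZ #2, and RPL10L, a paralog best known from testis, was at 36.3 and 38.1 CPM, 36.6 and 15.3 CPM, and 16.1 and 17.5 CPM. Neither passed the test.

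The genes were next grouped by features that were not used to choose them. By the mean level over the 6 libraries, 13 of 16 ribosomal protein genes at 400 CPM or more were lower with siTAZ #2, 10 of 31 between 200 and 400 CPM, and 4 of 27 under 200 CPM. Among the other genes tested, 93 of 314 (29.6%), 152 of 526 (28.9%) and 1749 of 13139 (13.3%) were lower in the same bins. Below 400 CPM the shares of ribosomal protein genes (32.3% and 14.8%) were thus near those of other genes of like level. With siTAZ #1, 4 of 16 (25%), 4 of 31 (12.9%) and 0 of 27 ribosomal protein genes were lower, beside 18.5%, 17.7% and 9.25% of the other genes. These are few genes, and a difference from the other genes was not tested. A higher level also gives more counts and a smaller error, and the part this played was not tested.

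**Figure D4:**
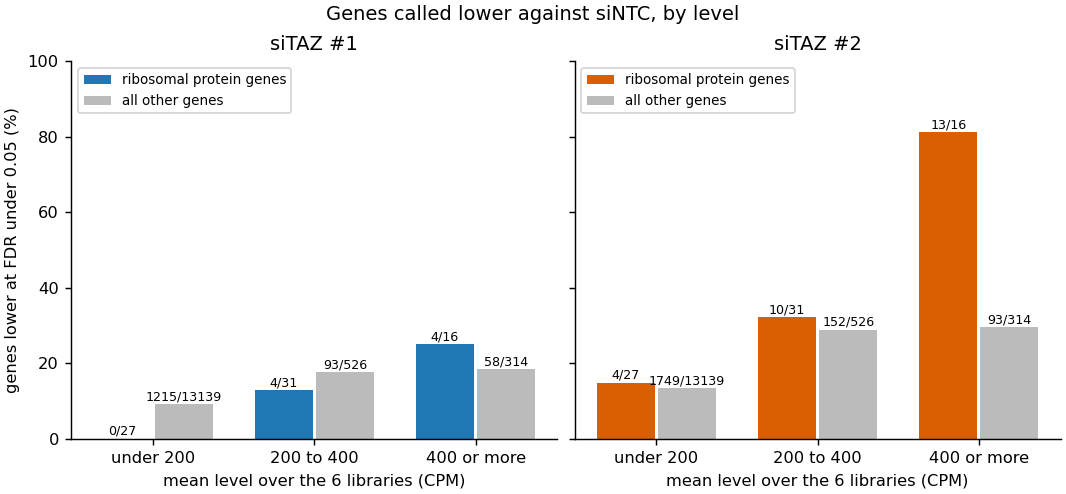
Percent of genes lower than siNTC at FDR under 0.05 in 3 bins of mean level (CPM over the 6 libraries), for ribosomal protein genes (coloured) and all other genes (grey), with siTAZ #1 and siTAZ #2. The numbers over the bars are genes lower of genes tested. The bars for siTAZ #2 at 400 CPM or more stand at 13 of 16 against 93 of 314.

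Many ribosomal protein genes carry snoRNA genes in their introns, which guide the modification of rRNA. Of the 26 with at least 1 annotated snoRNA gene inside, 15 were lower with siTAZ #2 (median log2 fold change -0.47), and of the 48 without, 12 (median -0.23). Of the 43 genes with a median transcript length of 700 nt or more, 23 were lower with siTAZ #2 (53.5%), and of the 31 shorter ones, 4 (12.9%), close to the 14.4% of all genes. Across the 74 genes, Spearman's rho of the log2 fold change with siTAZ #2 was -0.43 with the level, -0.37 with transcript length, -0.36 with the number of snoRNA genes and -0.04 with GC content. These genes share the same libraries, so the values describe them and carry no test. Of the tested genes with a known start, 18 of 50 with a pyrimidine run and 5 of 9 without one were lower with siTAZ #2.

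The libraries of a group differed across the whole family. From replicate 1 to replicate 2, the median log2 difference over the 74 genes was 0.22 for siTAZ #1, -0.30 for siTAZ #2 and 0.00 for siNTC. It was larger for transcripts under 700 nt than for longer ones, at 0.34 against 0.17 with siTAZ #1 and -0.36 against -0.26 with siTAZ #2. RPL36 was 0.90 higher in replicate 2 of siTAZ #1 on the log2 scale (68.8 and 129 CPM), and RPS10 was 1.45 lower in replicate 2 of siTAZ #2 (log2 difference -1.45, 29.1 and 10.3 CPM). An offset for transcript length in each library gave 9 of the 74 genes lower with siTAZ #1 and 31 with siTAZ #2. In that fit 11.1% and 16.1% of all genes were lower.

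**Figure D5:**
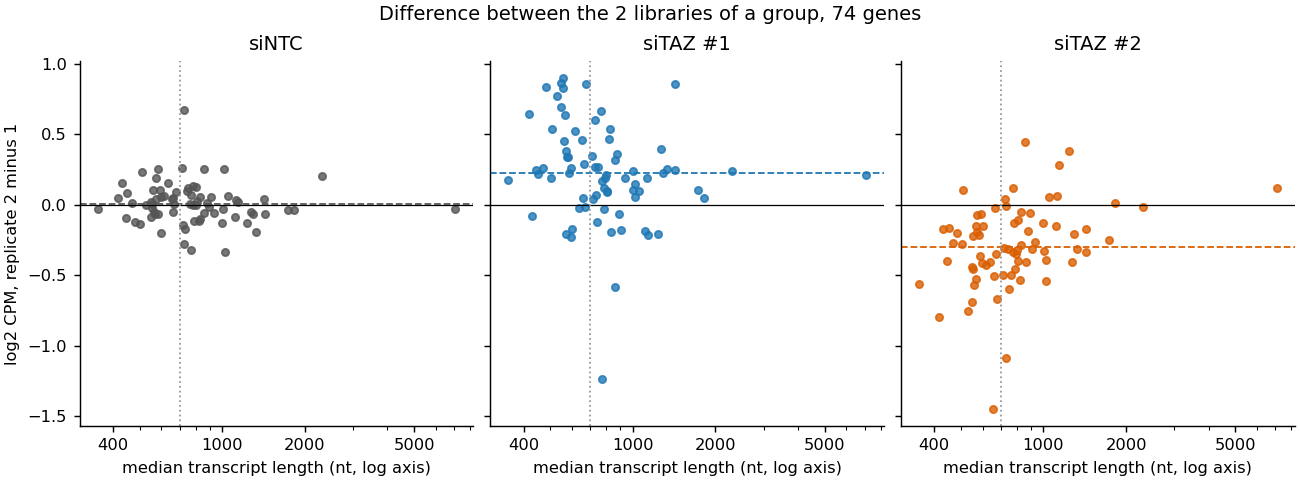
Log2 difference in CPM between replicate 2 and replicate 1 of each group for the 74 genes, against median transcript length (nt, log axis), with the dashed line at the median and the dotted line at 700 nt. The medians are 0.00 with siNTC, 0.22 with siTAZ #1 and -0.30 with siTAZ #2.

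Other genes of the translation machinery were counted in the same way. Of 22 TOP and translation genes outside the family, 9 were lower with siTAZ #2 and none higher (median log2 fold change -0.44), and 2 were lower with siTAZ #1 (median -0.09). These are 40.9% and 9.09%, beside 14.4% and 9.78% of all genes, so the share with siTAZ #1 was at the background. NPM1, a nucleolar chaperone of ribosome assembly, was at 278 and 301 CPM with siNTC, 239 and 330 CPM with siTAZ #1, and 137 and 103 CPM with siTAZ #2 (log2 fold change with siTAZ #2 -1.27, SE 0.20, FDR 0.0074). EEF2, the factor that moves the ribosome along the mRNA, was lower with both siRNAs (log2 fold change -0.62, FDR 0.011, and -0.68, FDR 0.0059). FAU, which encodes a ribosomal protein fused to a ubiquitin-like protein and whose name the rule does not cover, was not called. RPL22L1, the paralog of RPL22, was at 82.2 and 74.2 CPM with siNTC, 43.2 and 49.1 CPM with siTAZ #1, and 18.8 and 16.8 CPM with siTAZ #2, so that the 3 groups were fully separated (log2 fold changes -0.76, FDR 0.014, and -2.13, FDR 0.00069). RPL22 itself was at 280 and 288 CPM, 236 and 280 CPM, and 255 and 226 CPM and was not called (FDR 0.44 and 0.17).

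Of 50 ribosome biogenesis genes, 21 were lower and 2 higher with siTAZ #2 (median log2 fold change -0.32), and 7 were lower and 3 higher with siTAZ #1 (median -0.03). The shares lower were 42% and 14%, beside 14.4% and 9.78% of all genes. The lowest with siTAZ #2 were NOLC1 (log2 fold change -1.90, FDR 0.00050), NCL (-1.45, FDR 0.00092) and RRS1 (-1.32, FDR 0.0037), which act in the nucleolus. Their values with siTAZ #1 did not pass the test. Of 14 genes of mTOR signaling and TOP control, 7 were lower with siTAZ #2 (50%, beside 14.4% of all genes). With siTAZ #1, 4 of them were lower (28.6%, beside 9.78% of all genes). DDIT4, an inhibitor of mTOR, was lower with both (log2 fold change -1.22 with siTAZ #1, FDR 0.0028, and -1.49 with siTAZ #2, FDR 0.0011). MTOR itself was lower with siTAZ #2 (-0.86, FDR 0.0026). EIF4EBP2, a translation repressor, was lowest with siTAZ #1 (-1.90, FDR 0.00059) and was also lower with siTAZ #2 (-0.34, FDR 0.029).

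The 75 tested genes of mitochondrial ribosomal proteins, which build a separate ribosome, gave 11 lower and 2 higher with siTAZ #2 (median -0.11) and 7 lower and 1 higher with siTAZ #1 (median -0.20). The shares lower, 14.7% and 9.33%, were close to the 14.4% and 9.78% of all genes. The shares higher, 2.67% and 1.33%, were below the 14.1% and 10.8% of all genes, as in the cytosolic family.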

How the data were processed

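The authors aligned Ion Proton reads of the 6 HFL-1 libraries to hg19 with TMAP and counted them with HTSeq, and they deposited these counts with no normalization. Strandedness and the HTSeq mode are not given in the sources used here. Entries with a month and day for a name (13) were left out. Counts were filtered with filterByExpr, scaled by TMM and tested with edgeR 4.0.16 (glmQLFit and glmQLFTest, R 4.3.3) with the 6 libraries fitted together. The Benjamini-Hochberg adjustment ran over 14053 genes (FDR, threshold 0.05). Positions, transcript lengths, snoRNA genes and pseudogenes came from GENCODE on GRCh37, and the length of a gene is the median over its coding transcripts in the basic set. Replicates differed by more than sampling noise (mean chi-square per gene of the family 17.5 for siNTC, 116 for siTAZ #1 and 52.0 for siTAZ #2). Counts of 0 to 3 are at the floor of what a library can show, for counting error only. Pseudogene copies can take or add reads, so genes with many copies are uncertain.

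The genes, lists, bins and tests were chosen with earlier results of these data known, and no list test was run. Named are the 5 lowest and 5 highest called genes of each comparison, the 3 most counted genes of each subunit, the genes grouped by role, and those not tested, of which some are not reported here. Genes named for other features (RPL36, RPS10, RPS27 and FAU) were chosen after their values were seen. On simulated counts of 13290 genes, of which 200 were changed 2-fold, the fit recovered 179 with siTAZ #1 and 177 with siTAZ #2. It also called 12 and 13 unchanged genes. These counts were drawn with the spread of genes outside the stretch from RANGAP1 through Y (common dispersion 0.0163). The fit reported here had 0.0807. Recovery at that spread, or of changes under 2-fold, was not tested. Alternatives were RLE and library-total scaling, no filter, DESeq2 1.42.0, edgeR's exact test, a replicate block, offsets for length and GC content, the fit without the stretch from RANGAP1 through Y, and leaving out each library.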

Additional observations from a re-analysis of the deposited data

Results flagged for a closer look

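The siRNAs differed by the direct test in 15 ribosomal protein genes, all higher with siTAZ #1 than with siTAZ #2 (edgeR's quasi-likelihood test, FDR under 0.05). The log2 differences, siTAZ #1 minus siTAZ #2, were 1.40 for RPS7, 1.13 for RPL29, 0.95 for RPL14, 0.88 for RPL13A, 0.78 for RPL19, 0.75 for RPL15, 0.70 for RPS12, 0.70 for RPS23, 0.61 for RPS2, 0.59 for RPS6, 0.57 for RPL7A, 0.55 for RPL6, 0.42 for RPLP0, 0.40 for RPL41 and 0.36 for RPL32. The share of the family, 20.3%, stands beside 15.2% of all genes. WWTR1 differed the other way, with a log2 difference of -0.70. The groups hold 2 libraries each, too few for a test of a single sample that stands apart.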

How the results depend on the processing

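No named gene that was called changed sign under the alternatives tried, and the calls of RPL13A, RPL29, RPL14, RPS12, RPL15, RPS2, RPS6, RPLP0 and RPL41 with siTAZ #2 held in all of them. The number of genes lower with siTAZ #1 (8) became 20 without the stretch from RANGAP1 through Y, 20 with DESeq2, 0 with edgeR's exact test and 3 with the replicate block, and it ranged from 0 to 22 when 1 library was left out. The number higher (1) was 0 with the exact test and 0 to 14 without 1 library. With siTAZ #2, the number lower (27) was 43 with the exact test and 12 to 44 without 1 library, and the number higher (1) was 2 with the exact test and without the stretch from RANGAP1 through Y, 0 without a filter and with the replicate block, and 0 to 2 without 1 library. Between the siRNAs, the number higher with siTAZ #1 (15) was 3 with the exact test and 8 to 38 without 1 library, and the number lower (0) was 0 to 6. The median log2 fold change of the small subunit with siTAZ #1 ranged from -0.205 to 0.128 without 1 library. The median differences between the siRNAs ranged from 0.088 to 0.409 for the large subunit and from 0.065 to 0.389 for the small subunit. The WWTR1 difference between the siRNAs was -0.701 in the exact test, no longer past the threshold. Among the genes named with their fold change, calls were also lost 16 times in the exact test, 11 with the replicate block, 7 with the GC offset, 6 with library totals, 3 without a filter, 1 with DESeq2, 1 with the length offset and 66 times without 1 library. The share of all genes called moved as well. In the exact test, 22.6% of all genes were lower with siTAZ #2 and 3.45% with siTAZ #1, beside 14.4% and 9.78% in the fit reported here. Between the siRNAs, 5.62% of all genes were higher with siTAZ #1 in the exact test, beside 15.2%. When 1 library was left out, the share of all genes also moved. The causes were not tested. Same-numbered deviations correlated at 0.0005, 0.013 and -0.095, so the counts showed no pairing of the libraries by replicate number. Whether same-numbered libraries were handled together is not named in the labels. With the replicate block 22 genes were lower with siTAZ #2. Leaving out 1 library of a group leaves 1 sample there, assumed to vary like the others. With 2 libraries per group the errors rest on a spread shared across genes and groups.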

Other observations

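Of 24 tested pseudogenes named after ribosomal proteins, 4 were lower with siTAZ #2 and 3 with siTAZ #1, with none higher. These are 16.7% and 12.5%, near the 14.4% and 9.78% of all genes. RPL23P8 was lower with both siRNAs, at 749 and 663 CPM with siNTC, 424 and 379 CPM with siTAZ #1, and 357 and 406 CPM with siTAZ #2. RPSAP58 stood at 1941 and 1862 CPM with siNTC, above its parent gene RPSA, and at 788 and 1145 CPM with siTAZ #2. How reads were divided between RPSA and this copy was not tested.

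The genes left out for their place on the X chromosome were not all near 0 in replicate 2 of siTAZ #1. There RPL10 was at 273 CPM, against 735 CPM in replicate 1, RPL39 at 99.8 CPM against 188 CPM, and RPL36A at 1.90 CPM against 5.61 CPM. RPS4X, an X-linked small subunit gene that the name pattern does not cover, was at 56.6 CPM against 302 CPM. With siTAZ #2, RPL10 was at 375 and 442 CPM, against 1015 and 870 CPM with siNTC (FDR 0.087).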
